A study of Mus musculus with 4 samples.

Results

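The 38 genes described here encode the proteins that copy DNA and that carry a cell from G1 into S phase. They were taken by symbol from a list chosen with earlier results of these data known. Of the 31053 genes in the deposited count matrices, 38 matched. The members fall into 7 roles, from the replicative helicase to cyclin E. Their counts were read in liver mononuclear cells of C57BL/6 mice aged 8 to 10 weeks, read out by single-cell RNA sequencing in droplets (a 5' kit). Concanavalin A (ConA), a plant lectin, activates T cells and causes an immune hepatitis in mice, and livers were taken 24 h after it. Naïve livers were from mice without ConA. ConA+Veh livers were from mice given ConA and then the vehicle, and ConA+TCDD livers from mice given ConA and, 1 h later, TCDD at 10 µg/kg. TCDD is a long-lived ligand of the aryl hydrocarbon receptor. The ConA+FICZ library was labelled with ConA and FICZ, a short-lived ligand of the same receptor, and the dose and time of FICZ are not given in the sources used here. The study's paper describes the Naïve, ConA+Veh and ConA+TCDD groups and does not mention FICZ. The 3 ConA groups all carry ConA, and no group received TCDD or FICZ without it. Each group is 1 library, and the number of mice behind a library is not given in the sources used here, so no difference below has a replicate check and no p-value is given.

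DNA replication begins when Cdc6 and Cdt1 load the Mcm2 to Mcm7 ring onto origins in G1. Cyclin E and its kinase, together with E2F factors that switch on many of these genes, then let Cdc45 and GINS turn the ring into an active helicase. Polymerase alpha and primase lay down primers, the RFC complex loads the PCNA clamp, Fen1 and Lig1 join the lagging-strand fragments, and ribonucleotide reductase, thymidylate synthase, thymidine kinase and dUTPase supply the nucleotides. Resting lymphocytes express these genes weakly, and activated lymphocytes express them strongly as they divide.

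Some member promoters hold a short E2F-type sequence, which the choice of genes did not use. RefSeq promoters of build GRCm38.p6, running from 250 bases before to 50 after each start, were given for 34 of the 38 members, and Mcm4, Gins1, Gins2 and Ccne2 had no entry. An E2F-type 8-mer was searched on both strands, written as TTTCCCGC, TTTGGCGC, TTTCGCGC or TTTGCCGC. It was present in 14 of 34 members, or 41.2%, against 2.60% of all 27025 genes with a promoter and 5.23% of the 7814 genes with at least 20 UMIs in the CD8 gate defined below. A list of other replication genes, described below, held it in 11 of 28 promoters, or 39.3%, so the share is not particular to the members. The replicative helicase held it in 4 of 5 promoters and the chromatin, histone mRNA and checkpoint role in 4 of 7, whereas none of the 5 deoxynucleotide supply promoters did. The 5-letter core of the dioxin response element, GCGTG, was present in 44.1% of members, against 35.2% of all genes and 58.2% of the genes seen in the CD8 gate. These are matches of letters and not measured binding sites.

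The stretches before the start that hold the E2F-type letters are shown for Mcm6, Mcm5 and Mcm7 of the helicase, Cdc6 that loads it, Pola1 that primes synthesis and Hells that remodels chromatin, because these genes stand for the roles in which the motif recurred. Each is written 5′ to 3′ on the strand of its gene, with the motif in capitals. In Mcm6 and Mcm5, 2 motifs on opposite strands overlap and form a longer run of capitals.

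Mcm6, chr1:128359725-128359835, minus strand: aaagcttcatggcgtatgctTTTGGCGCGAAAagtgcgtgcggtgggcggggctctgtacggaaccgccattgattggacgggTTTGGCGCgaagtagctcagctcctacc

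Mcm5, chr8:75109336-75109387, plus strand: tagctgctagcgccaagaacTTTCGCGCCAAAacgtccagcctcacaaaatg

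Mcm7, chr5:138172021-138172068, minus strand: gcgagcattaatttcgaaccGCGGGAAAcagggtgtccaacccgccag

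Cdc6, chr11:98907993-98908040, plus strand: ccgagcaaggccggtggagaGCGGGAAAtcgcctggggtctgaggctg

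Pola1, chrX:93632266-93632313, minus strand: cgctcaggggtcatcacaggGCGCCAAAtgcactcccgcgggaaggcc

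Hells, chr19:38930908-38930955, plus strand: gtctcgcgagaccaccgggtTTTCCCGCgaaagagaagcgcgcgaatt

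The 4 libraries held 2086 cells in Naïve, 2779 in ConA+Veh, 1880 in ConA+TCDD and 2555 in ConA+FICZ, with 5952445 to 19252211 UMIs (unique molecular identifiers, each 1 captured RNA molecule). Libraries shared 4 to 15 cell barcodes by pair. Cells were gated by marker UMIs into CD8 T, CD4 T, NK, B and myeloid cells, and cells passing more than 1 of the T, B and myeloid gates were left out. The CD8 gate held 159, 380, 262 and 236 cells in the order Naïve, then ConA+Veh, ConA+TCDD and last ConA+FICZ, and the CD4 gate 79, 116, 85 and 78. NK gates held 124, 197, 165 and 169 cells, B gates 1078, 806, 378 and 770, and myeloid gates 111, 379, 109 and 397. Cd3 genes and Cd8a with Cd8b1 were abundant in the CD8 gate, at 1387 to 2244 and 1169 to 1591 CPM (UMIs per 1000000 UMIs of the gated cells). Genes of B cells reached at most 15.1 CPM there, and those of myeloid cells 18.2 CPM. The gate fixes these values beforehand, so they are no check of it. It required Cd3 and Cd8 UMIs and left out cells with at least 2 UMIs of the B or myeloid genes. Among markers the gate did not use, those of erythroid cells stood at 6.06, 122, 37.9 and 29.0 CPM in the same order. Plasmacytoid dendritic cell markers stood at 215 to 360 CPM. Hepatocyte and endothelial markers reached at most 43.9 and 42.4 CPM. Mpo, Elane, Prtn3 and Ctsg, markers of granulocyte progenitors, reached 285 CPM in the CD8 gate of ConA+TCDD, where 2 cells carried them, and at most 4.82 CPM in the CD8 gates of the other libraries. Depth differed between gates and libraries. The median cell of the CD8 gate held 3297 UMIs in Naïve, against 9708 in ConA+Veh, 8990 in ConA+TCDD and 12429 in ConA+FICZ. Intervals below are exact 95% Poisson or binomial intervals and cover counting error only.

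The members were abundant in T cells after ConA. Summed over the 38 members, the CD8 gate held 1101 CPM in Naïve (1022 to 1184), 5134 in ConA+Veh (5070 to 5199), 4979 in ConA+TCDD (4902 to 5056) and 5062 in ConA+FICZ (4990 to 5135). The 3 ConA libraries lay together, far above the Naïve library. The log2 ratio was 2.22 for ConA+Veh against Naïve (2.11 to 2.33), -0.04 for ConA+TCDD against ConA+Veh (-0.07 to -0.02) and -0.02 for ConA+FICZ against ConA+Veh (-0.05 to 0.01). Leaving out the 5% deepest cells of each library moved the CD8 ratio of ConA+Veh against Naïve to 2.82, and the ratios of ConA+TCDD and of ConA+FICZ against ConA+Veh to -0.22 and -0.19. That cut was made by library and not by gate. It left 143 of 159 CD8 cells in Naïve, 324 of 380 in ConA+Veh, 220 of 262 in ConA+TCDD and 178 of 236 in ConA+FICZ. Giving each cell equal weight made these ratios 2.48, -0.25 and -0.14.

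The CD4 gate held 2560 CPM in Naïve, 5256 in ConA+Veh, 5847 in ConA+TCDD and 3854 in ConA+FICZ. Here the 3 ConA libraries did not lie together, with the highest level in ConA+TCDD and the lowest in ConA+FICZ. The log2 ratio was 1.04 for ConA+Veh against Naïve (0.94 to 1.14), 0.15 for ConA+TCDD against ConA+Veh (0.10 to 0.20) and -0.45 for ConA+FICZ against ConA+Veh (-0.50 to -0.39). In the Naïve library, the 10% of CD4-gated cells with the most member UMIs carried 89.7% of them, against 32.4% to 41.6% in the ConA libraries, so the Naïve sum rests on few cells. NK cell markers (Ncr1, Klre1, Klrb1c, Klra4 and Klra8) stood at 127 CPM in the Naïve CD4 gate. They stood at 4.69 CPM in ConA+Veh, 0 in ConA+TCDD and 2.85 in ConA+FICZ, so the cells of the gate were not alike. The part of this difference in the ratios was not tested. Without the 5% deepest cells of each library the ratio of ConA+Veh against Naïve was 3.06. When cells were thinned to 1000 UMIs before gating, 22, 19, 12 and 9 cells remained in the CD4 gate and the ratio of ConA+TCDD against ConA+Veh turned to -1.11.

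The other gates held less after ConA. NK cells had 941, 2260, 2065 and 1821 CPM from Naïve through ConA+Veh and ConA+TCDD to ConA+FICZ, B cells 865, 2119, 2083 and 2163 CPM, and myeloid cells 1606, 2230, 3051 and 1685 CPM. The log2 ratio of ConA+Veh against Naïve was 1.26 in NK (1.06 to 1.47), 1.29 in B (1.23 to 1.36) and 0.47 in myeloid cells (0.37 to 0.58). For ConA+TCDD against ConA+Veh it was -0.13 in NK (-0.24 to -0.02), -0.02 in B (-0.08 to 0.03) and 0.45 in myeloid cells (0.39 to 0.51), and for ConA+FICZ against ConA+Veh -0.31 (-0.43 to -0.19), 0.03 (-0.01 to 0.07) and -0.40 (-0.46 to -0.35). Neutrophil markers stood at 1284 CPM in the NK gate of ConA+TCDD, where 1 cell was neutrophil-marked, and at 15.5 to 25.7 CPM in the other NK gates, and without that cell the NK ratio of ConA+TCDD against ConA+Veh was -0.12 (-0.23 to -0.01). That ratio turned to 0.02 without the 5% deepest cells and to 0.24 with gates set on thinned cells. In each of the 3 ConA libraries the CD8 and CD4 gates were the upper 2 of the 5 gates, a within-library order. In Naïve the order was CD4, myeloid, CD8, NK and B, and the intervals of CD8 and NK overlapped, as did those of NK and B. In ConA+Veh the CD4 and CD8 intervals overlapped, as did those of NK with myeloid and B cells.

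**Figure D1:**
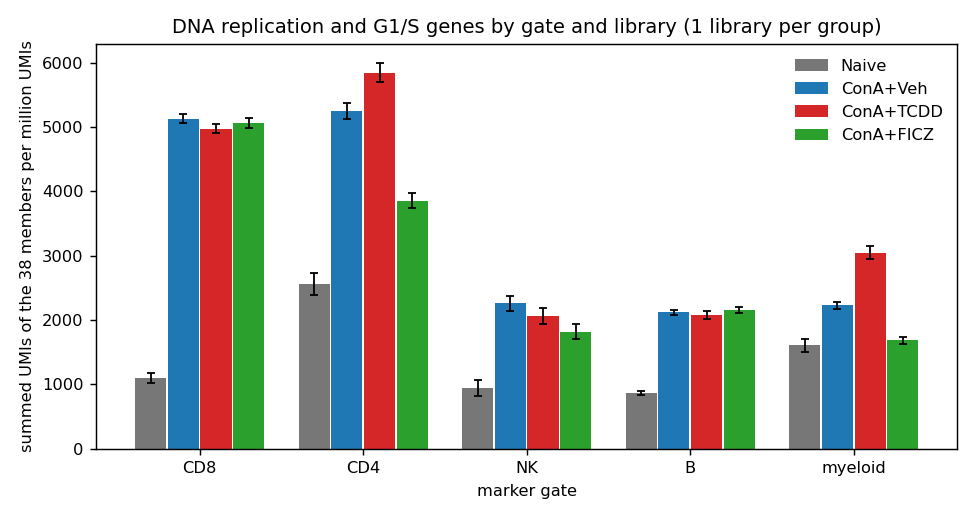
Summed CPM of the 38 members (bars, from 0) in each marker gate and library, with exact 95% Poisson intervals of the counting error. The CD8 bars of the 3 ConA libraries lie between 4979 and 5134 against 1101 in Naïve, and the CD4 bars of ConA+TCDD and ConA+FICZ lie at 5847 and 3854.

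Nearly all members took part in the CD8 difference between ConA+Veh and Naïve. Of 38 members, 36 were at least 2-fold higher in ConA+Veh, against 14.9% of all 8946 genes tested in that gate, and the members' median log2 ratio was 2.42 against 0.05 for all genes. A gene was tested where the 2 libraries together held at least 20 of its UMIs, and a library at 0 UMIs entered at the floor of 3 UMIs. The 2 members below 2-fold, named after their values were seen, were the loading factor Cdt1 at a log2 ratio of 0.71 and the uracil glycosylase Ung at 0.93. In the CD4 gate 21 of 37 members tested were at least 2-fold higher, against 10.7% of all genes, with a median of 1.11 against 0.01. NK cells had 17 of 26 members tested at least 2-fold higher (background 9.44%, median 1.43 against -0.12 for all genes), B cells 31 of 37 (background 7.77%, median 1.63 against -0.28) and myeloid cells 6 of 37 (background 6.76%, median 0.60 against -0.10). No member was 2-fold lower in ConA+Veh than in Naïve in any of the 5 gates. Of all genes tested, 1058 of 8946 were 2-fold lower in CD8, 713 of 6560 in CD4 and 709 of 5213 in NK. In B cells 1751 of 9433 were, and in myeloid cells 1038 of 8653.

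Between ConA+TCDD and ConA+Veh few members passed 2-fold. None of 38 did in CD8 (3.2% of all genes, higher or lower), 1 of 38 in CD4 (4.22%), 2 of 32 in NK (5.78%), 1 of 37 in B (4.54%) and 1 of 38 in myeloid cells (8.46%). Between ConA+FICZ and ConA+Veh, 1 of 38 did in CD8 (4.49%), 3 of 37 in CD4 (7.24%), 3 of 32 in NK (6.72%), none of 38 in B (4.27%) and 2 of 37 in myeloid cells (7.62%). These shares lie near or under the background at the minimum of 20 UMIs. With at least 50 UMIs per gene, 3 of 36 members passed in CD4 for ConA+FICZ, against 3.8% of all genes. For ConA+TCDD 0 of 37 did, against 1.49%. Smaller differences leaned one way in some gates. In CD4 cells 32 of 38 members tested lay above 0 for ConA+TCDD against ConA+Veh, with a median log2 ratio of 0.18 against -0.04 for all genes, and 5 of 37 lay above 0 for ConA+FICZ against ConA+Veh, with a median of -0.47 against -0.02. Myeloid cells had 35 of 38 above 0 for ConA+TCDD (median 0.40) and 8 of 37 for ConA+FICZ (median -0.34), and NK cells 9 of 32 (median -0.33) and 7 of 32 (median -0.31). In B cells 17 of 37 and 19 of 38 lay above 0, with medians of -0.04 and 0.01. The medians of all genes in these 3 gates lay between -0.08 and 0.05. In CD8 cells 14 and 20 of 38 members lay above 0, with medians of -0.06 and 0.03 against -0.02 and -0.01 for all genes. Of all genes, 4442 of 9387 lay above 0 in CD8 for ConA+TCDD and 4641 of 9444 for ConA+FICZ. With ConA+TCDD again first, CD4 had 3291 of 7211 and 3455 of 7192, and NK 2452 of 5761 and 2730 of 5773. B cells had 4810 of 9055 and 5201 of 9523, and myeloid cells 4445 of 8868 and 5084 of 9369. The members were counted in the same cells, so these counts are not 38 separate results. The comparisons with ConA+TCDD and ConA+FICZ share the ConA+Veh library.

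**Figure D2:**
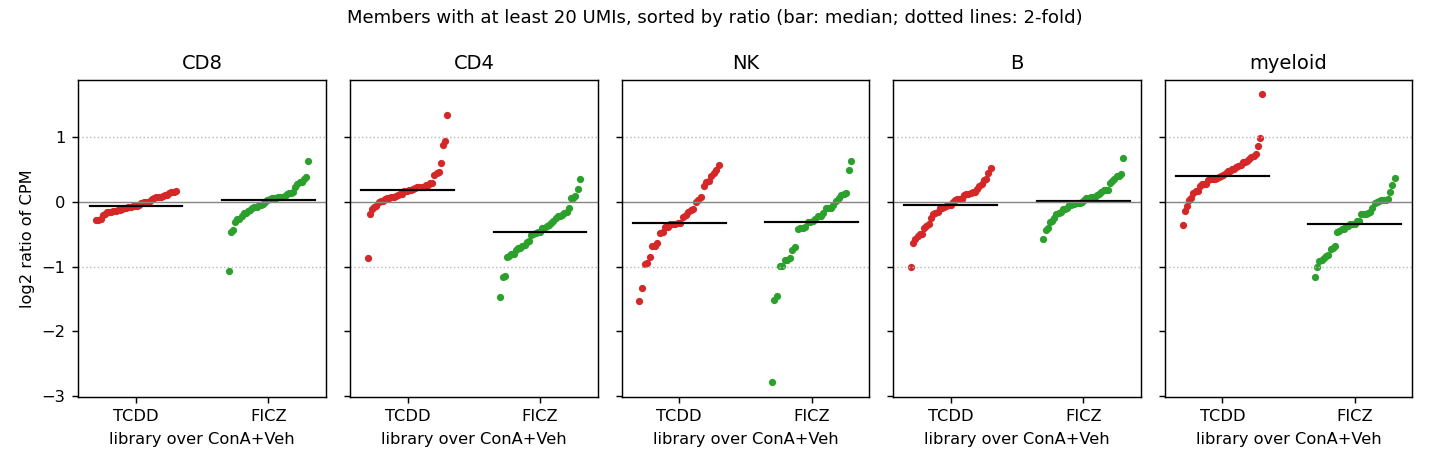
Log2 ratio of CPM of each member with at least 20 UMIs in the 2 libraries, by gate, for ConA+TCDD against ConA+Veh (red) and ConA+FICZ against ConA+Veh (green), sorted by ratio, with the median as a bar and 2-fold as dotted lines. The CD8 medians lie at -0.06 and 0.03, and the CD4 medians at 0.18 and -0.47.

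The replicative helicase, the Mcm2 to Mcm7 ring, summed to 332 CPM in the Naïve CD8 gate, 1197 in ConA+Veh, 1135 in ConA+TCDD and 1292 in ConA+FICZ. Mcm6 had 65.1 CPM in Naïve, 288 in ConA+Veh, 272 in ConA+TCDD and 272 in ConA+FICZ, and its log2 ratio of ConA+Veh against Naïve was 2.14 (1.71 to 2.62). Mcm3 had 48.5, 254, 243 and 281 CPM in the same order. All 6 subunits were at least 2-fold higher in ConA+Veh than in Naïve in this gate, against 14.9% of all genes tested. Mcm2 lay nearest to the threshold at 1.06. In NK cells the ring had 329, 625, 437 and 536 CPM, and its log2 ratio of ConA+TCDD against ConA+Veh was -0.52 (-0.75 to -0.28), whereas the primase, clamp and clamp loader role had 0.08 (-0.14 to 0.29) in the same cells. The intervals of the helicase loading, Okazaki fragment and chromatin roles, at -0.16, -0.09 and -0.26, overlapped that of the ring.

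Among the proteins that load and activate the helicase, Cdt1 brings the ring to origins and Gins2 is a subunit of the GINS complex of the active helicase. Cdt1 had 54.5, 89.2, 94.2 and 86.3 CPM in the CD8 gate, in the order Naïve, then ConA+Veh, ConA+TCDD and last ConA+FICZ. Gins2 had 4.54, 70.8, 61.2 and 71.9 CPM. The Naïve library was low for Gins2 and much closer to the ConA libraries for Cdt1. Gins1, another GINS subunit, had 0 UMIs in the Naïve CD8 gate, and 19.9 CPM in ConA+Veh, at least 4.38-fold above the floor of 3 UMIs (4.54 CPM). The exact interval allows up to 5.59 CPM in Naïve and a log2 ratio from 1.80 upward. It had 22.0 CPM in ConA+TCDD and 25.2 in ConA+FICZ, among the largest member ratios against ConA+Veh at 0.15 (-0.32 to 0.60) and 0.34 (-0.09 to 0.77), with both intervals across 0. In B cells Cdt1 ran the other way, with 89.1 CPM in Naïve, 46.2 in ConA+Veh, 54.6 in ConA+TCDD and 51.2 in ConA+FICZ, with ConA+Veh against Naïve at -0.95 on the log2 scale (-1.23 to -0.67). Gins1 was the B cell member with the largest ratio of ConA+TCDD against ConA+Veh, at 0.52 (-0.22 to 1.24), from 9.86 and 14.2 CPM. Mcm10, which helps the helicase to start, had the lowest CD4 ratio of ConA+TCDD against ConA+Veh, with 15.8 CPM against 28.9 and a log2 ratio of -0.87 (-1.79 to -0.01) from 17 and 37 UMIs.

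The clamp Pcna encircles DNA and holds the polymerase, and Pclaf binds it. Pclaf had 40.9 CPM in Naïve CD8 cells, 474 in ConA+Veh, 474 in ConA+TCDD and 394 in ConA+FICZ. On the log2 scale its ratio was 3.53 (2.99 to 4.14) for ConA+Veh against Naïve, -0.00 for ConA+TCDD against ConA+Veh (-0.09 to 0.09) and -0.27 for ConA+FICZ against ConA+Veh (-0.36 to -0.17). Naïve was the low library and ConA+FICZ the lowest of the 3 ConA libraries. Pcna had 95.4, 264, 285 and 248 CPM, with a smaller ratio of ConA+Veh against Naïve at 1.47 (1.10 to 1.86). In CD4 cells Pclaf had 207, 487, 514 and 220 CPM, and its log2 ratio of ConA+FICZ against ConA+Veh was -1.15 (-1.37 to -0.93). The Naïve CD4 level rests on few cells, as given above for the sum. NK cells of Naïve held no Pclaf UMI, and those of ConA+Veh held 153 CPM, at least 11.9-fold above the floor of 3 UMIs, with a log2 ratio from 3.25 upward by the exact interval. The clamp loader subunits Rfc4 and Rfc5 were named for being among the outermost CD8 ratios of ConA+TCDD against ConA+Veh. Rfc4 had 12.1, 94.0, 104 and 110 CPM, and Rfc5 24.2, 89.2, 73.4 and 88.7 CPM. Their log2 ratios were 0.15 (-0.06 to 0.35) and -0.28 (-0.52 to -0.05), and these intervals overlapped. All 38 members lay between -0.28 and 0.17 there.

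Fen1 trims the flaps of Okazaki fragments and Lig1 seals them. Lig1 had 30.3 CPM in Naïve CD8 cells, 170 in ConA+Veh, 152 in ConA+TCDD and 151 in ConA+FICZ. Fen1 had 27.3, 79.2, 89.0 and 83.5 CPM, and its ratio of ConA+TCDD against ConA+Veh, 0.17 (-0.06 to 0.39), was the largest of the members in that gate. For both genes the 3 ConA libraries were high and Naïve low. In B cells Lig1 had 15.9, 84.0, 64.7 and 56.5 CPM, and ConA+FICZ against ConA+Veh gave the lowest member ratio of that gate, -0.57 (-0.82 to -0.33). Ung, the glycosylase that removes uracil from DNA, had 21.2, 40.4, 42.5 and 62.7 CPM in CD8 cells and was the member with the largest ratio of ConA+FICZ against ConA+Veh, 0.63 (0.35 to 0.92). In NK cells it lay the other way, with 26.8 CPM in ConA+Veh, 9.26 in ConA+TCDD and 3.89 in ConA+FICZ, from 18, 5 and 2 UMIs. The ratio of ConA+FICZ against ConA+Veh in NK cells, -2.78, has an interval of -5.94 to -0.72.

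The deoxynucleotide supply role had the largest CD8 ratio of the 7 roles for ConA+Veh against Naïve, 2.85 (2.57 to 3.14), with 159, 1145, 1113 and 1080 CPM in the 4 libraries. Dut, which breaks down dUTP, had 80.3, 488, 504 and 509 CPM. Rrm2, the regulated subunit of ribonucleotide reductase, had 22.7, 189, 174 and 172 CPM, with 3.06 (2.33 to 3.90) for ConA+Veh against Naïve. Both were low in Naïve and close together after ConA. Tk1, which salvages thymidine, had 4.54 CPM in Naïve from 3 UMIs and 128 in ConA+Veh, and its log2 ratio of 4.81 (3.26 to 7.10) was the highest of the members tested without the floor. Tyms, which makes dTMP, had 19.7, 162, 154 and 118 CPM, with -0.46 (-0.64 to -0.29) for ConA+FICZ against ConA+Veh. In CD4 cells Rrm2 had 71.9, 220, 236 and 79.9 CPM. ConA+FICZ was the lowest of the 3 ConA libraries there, and its log2 ratio against ConA+Veh was -1.46 (-1.83 to -1.11), the lowest of the members tested in that gate. NK cells held 0 Rrm2 UMIs in Naïve and 50.6 CPM in ConA+Veh, at least 3.94-fold above that floor, with a log2 ratio from 1.60 upward by the exact interval. Rrm1, the large reductase subunit, had the largest NK ratio of ConA+TCDD against ConA+Veh, with 62.5 and 92.6 CPM and 0.57 (-0.05 to 1.2). Tk1 had that of ConA+FICZ, with 23.8 and 36.9 CPM and 0.63 (-0.40 to 1.69).

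E2f1 is a transcription factor of the G1 to S step, and Ccne1 and Ccne2 encode cyclin E. E2f1 had 4.54 CPM in Naïve CD8 cells, 29.9 in ConA+Veh, 26.9 in ConA+TCDD and 28.8 in ConA+FICZ, and Ccne1 had 9.09, 45.2, 45.3 and 49.1 CPM. Ccne2 had 1.51, 12.6, 11.9 and 5.97 CPM, from 1, 60, 39 and 22 UMIs. It was the 1 member past 2-fold for ConA+TCDD or ConA+FICZ against ConA+Veh in the CD8 gate, with -1.07 (-1.85 to -0.35) for ConA+FICZ against ConA+Veh. In CD4 cells Ccne2 had 8.63, 7.03, 17.7 and 0 CPM, from 3, 9, 19 and 0 UMIs. ConA+TCDD was the high library, with 1.33 (0.11 to 2.66) against ConA+Veh, and ConA+FICZ, set at the floor of 3 UMIs, was at least 2.47-fold lower than ConA+Veh, with a log2 ratio of -0.70 or lower by the exact interval. Summed over the 3 genes, the CD4 gate held 57.5, 85.9, 138 and 47.5 CPM, with 0.69 (0.32 to 1.06) for ConA+TCDD against ConA+Veh and -0.85 (-1.37 to -0.36) for ConA+FICZ against ConA+Veh. In B cells Ccne1 had 4.15, 15.2, 7.59 and 15.1 CPM, and was the member past 2-fold for ConA+TCDD against ConA+Veh at -1.01 (-1.92 to -0.18), from 15 and 68 UMIs.

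The last role covers chromatin copying, histone mRNA and the replication checkpoint. Hells, a chromatin remodeller tied to DNA methylation, had 18.2 CPM in Naïve CD8 cells, 256 in ConA+Veh, 213 in ConA+TCDD and 232 in ConA+FICZ. Its ratio on the log2 scale was 3.82 (3.01 to 4.77) for ConA+Veh against Naïve and -0.27 (-0.40 to -0.13) for ConA+TCDD against ConA+Veh. Clspn, the checkpoint adaptor at forks, had 6.06, 80.0, 66.1 and 59.1 CPM, with -0.28 (-0.52 to -0.03) for ConA+TCDD and -0.44 (-0.68 to -0.19) for ConA+FICZ against ConA+Veh. ConA+Veh was the highest library for both. Slbp, which binds the stem-loop of histone mRNA, had 92.4, 189, 203 and 198 CPM in CD8 cells, and in B cells 108, 117, 130 and 123 CPM, with the Naïve B cells close to the ConA libraries. Cdca7, a Hells partner, was the member with the largest ratio of ConA+FICZ against ConA+Veh in CD4, B and myeloid cells, at 0.35 (0.02 to 0.68), 0.68 (0.40 to 0.96) and 0.37 (0.00 to 0.74). In CD8 cells it had 19.7, 107, 113 and 139 CPM, with 0.37 (0.19 to 0.55) for the same comparison. In NK cells it lay the other way, with 37.2 CPM in ConA+Veh, 14.8 in ConA+TCDD and 13.6 in ConA+FICZ, from 25, 8 and 7 UMIs.

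**Figure D3:**
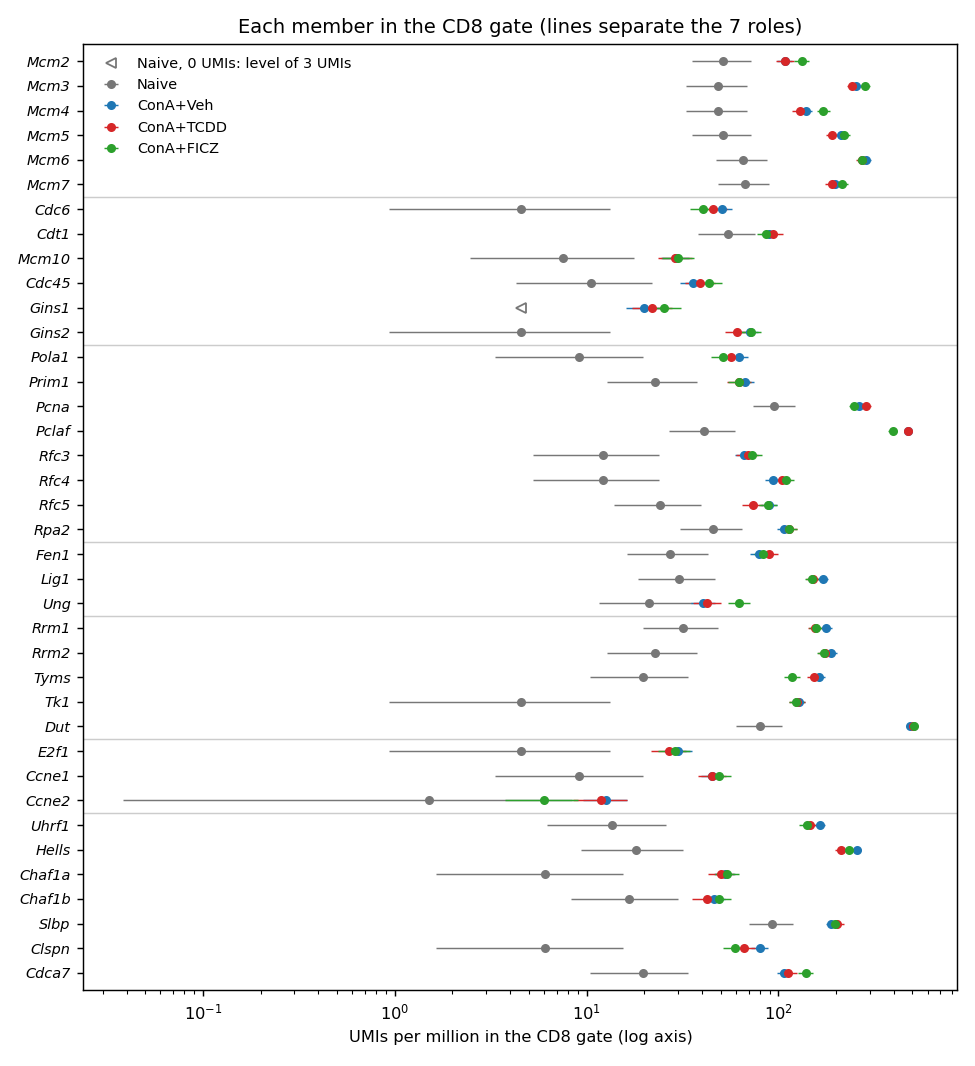
CPM of each member in the CD8 gate on a log axis, with exact 95% Poisson intervals, for the 4 libraries and in the order of the 7 roles; the open triangle marks the level of 3 UMIs for Gins1, which had 0 UMIs in Naïve. The 3 ConA libraries overlap or nearly overlap for most members and lie to the right of Naïve, with Cdt1 and Ung nearest to it.

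Members with and without the E2F-type letters of the promoters printed above had overlapping ratios. In the CD8 gate the 14 members with them had a median log2 ratio of ConA+Veh against Naïve of 2.47 (range 0.71 to 3.82), and the 20 whose promoter lacked them 1.91 (range 0.93 to 4.81). For ConA+TCDD against ConA+Veh the medians were -0.11 and 0.00.

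Because depth differed, each cell with at least 1000 UMIs was also thinned to 1000 UMIs and the cells with at least 3 member UMIs were counted. Shallower cells were left out, unevenly by gate and library. From Naïve through ConA+Veh and ConA+TCDD to ConA+FICZ these were 2, 5, 6 and 1 CD8 cells and 2, 2, 1 and 2 CD4 cells. NK gates lost 27, 16, 13 and 21 cells, B gates 30, 58, 27 and 32, and myeloid gates 8, 25, 4 and 26. Neutrophil-marked cells lost 4, 11, 9 and 31. In CD8 cells those with at least 3 member UMIs were 7 of 157 in Naïve, or 4.46% (1.81 to 8.97). They were 66.9% in ConA+Veh (61.9 to 71.7), 55.9% in ConA+TCDD (49.5 to 62.0) and 56.2% in ConA+FICZ (49.6 to 62.6). CD4 cells had 5.19% (1.43 to 12.8), 59.6% (50.1 to 68.7), 63.1% (51.9 to 73.4) and 43.4% (32.1 to 55.3) in the same order. In both gates the share of cells with many member UMIs was higher in each ConA library than in Naïve. The CD8 share was highest in ConA+Veh, with an interval that just met those of ConA+TCDD and ConA+FICZ. The CD4 shares followed the order of the sums, but the intervals of the ConA libraries overlapped. NK cells had 9.28%, 16.0%, 16.4% and 15.5%, B cells 3.24%, 15.5%, 19.1% and 13.4%, and myeloid cells 3.88%, 18.9%, 29.5% and 8.36%. Neutrophil-marked cells were taken as a cell type that should lack these genes. Their maturity and the level of free RNA were not measured. They had 0 of 18, 1 of 80, 1 of 31 and 0 of 220 such cells, or 0%, 1.25%, 3.23% and 0%. The upper limits of these are 18.5%, 6.77%, 16.7% and 1.66%. At 3 or more UMIs, the Naïve shares therefore cannot be told from that of so few neutrophil-marked cells. The same holds for the NK and B shares of ConA+TCDD, whose intervals start at 10.9% and 15.1%. At 1 or more member UMIs, neutrophil-marked cells had 5.56% in Naïve (0.14 to 27.3) and 32.3% in ConA+TCDD (16.7 to 51.4). The Naïve CD8, CD4, NK and B shares were then 52.9%, 46.8%, 55.7% and 47.0%, with intervals starting at 35.3% or higher. The Naïve myeloid share was 25.2% (17.2 to 34.8). In ConA+TCDD the NK share was 65.8% (57.7 to 73.3) and the B share 62.1% (56.8 to 67.2). Without thinning the CD8 shares with at least 3 were 37.1%, 93.2%, 87.0% and 88.1%. Within the B gate the 10% of cells with the most member UMIs held 49.8% of them in Naïve and 67.6% to 74.4% after ConA. In the NK gate the top 10% of cells held 36.4% in Naïve and 67.0% to 69.1% after ConA, so the NK sums after ConA rest on few cells.

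**Figure D4:**
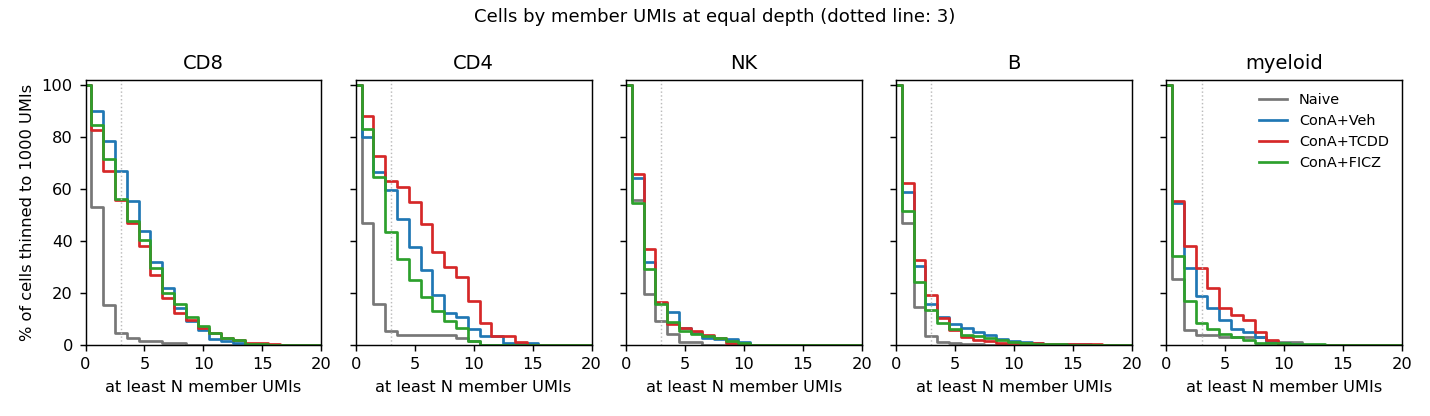
Percent of cells thinned to 1000 UMIs (y axis) that hold at least N member UMIs (x axis), by gate and library, with a dotted line at 3. At that line the CD8 curves stand at 4.46% in Naïve, 66.9% in ConA+Veh, 55.9% in ConA+TCDD and 56.2% in ConA+FICZ.

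Mki67 and Top2a, genes of the later cell cycle that are not members, split the cells by a measure that does not use the members. Of CD8 cells, 5.03% held a UMI of either gene in Naïve (2.20 to 9.67), 76.8% in ConA+Veh (72.3 to 81.0), 58.8% in ConA+TCDD (52.6 to 64.8) and 60.6% in ConA+FICZ (54.0 to 66.9). CD4 cells had 11.4%, 67.2%, 64.7% and 43.6%. These shares are at the deposited depth. Its median in CD8 cells was 3297 UMIs in Naïve, against 9708 in ConA+Veh, 8990 in ConA+TCDD and 12429 in ConA+FICZ. In CD4 cells it was 2836, 7192, 9621 and 12566 UMIs in the same order. The part of depth in these shares was not tested. The CD8 cells with a UMI held 4082, 5671, 5963 and 5927 member CPM, and those without held 715, 1807, 1402 and 2007. Cells with a UMI therefore had far more member RNA in every library, also in Naïve, where 8 such cells of 159 held 42.5% of the member UMIs. In the cells without a UMI the log2 ratio was 1.34 for ConA+Veh against Naïve (1.18 to 1.5), -0.37 for ConA+TCDD against ConA+Veh (-0.49 to -0.24) and 0.15 for ConA+FICZ against ConA+Veh (0.04 to 0.26), and the last turned to -0.04 when the split was made on thinned cells. In CD4 cells of Naïve 9 cells of 79 held 80.9% of the member UMIs, at 6160 CPM against 6100 in the cells with a UMI of ConA+Veh, a log2 ratio of ConA+Veh against Naïve of -0.01 (-0.13 to 0.10). For ConA+FICZ against ConA+Veh, CD4 cells with a UMI had -0.23 (-0.29 to -0.17) and those without 0.46 (0.28 to 0.64). The latter turned to -0.49 when the split was made on thinned cells. For ConA+TCDD against ConA+Veh, NK cells with a UMI had 0.21 (0.07 to 0.35) and those without -0.61 (-0.81 to -0.41). B cells with a UMI held 4591, 4073, 4323 and 5698 member CPM, and their share was 1.86%, 24.9%, 17.7% and 11%. The ConA+FICZ library thus had fewer such B cells than ConA+Veh and a higher member CPM in them, with a median depth of 12578 against 5532 UMIs. Plasma cell markers (Jchain, Sdc1 and Tnfrsf17) stood at 23.4 CPM in the whole B gate of Naïve, 107 in ConA+Veh, 1.52 in ConA+TCDD and 90.3 in ConA+FICZ. The parts of depth and of plasma cell RNA in this B cell difference were not tested.

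**Figure D5:**
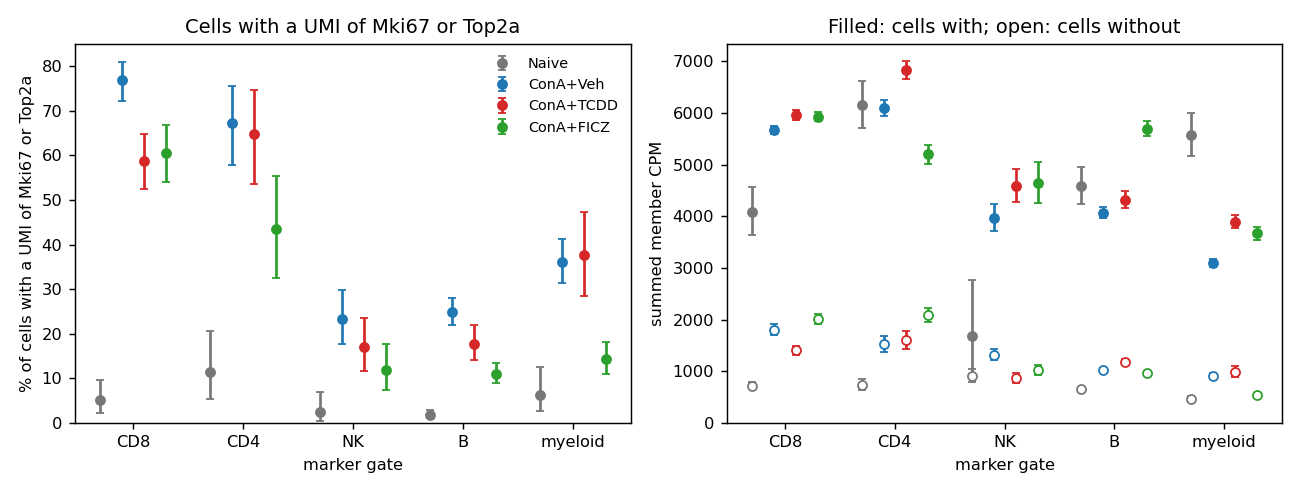
Left, percent of cells in each gate with a UMI of Mki67 or Top2a, with exact 95% binomial intervals; right, summed member CPM in the cells with (filled) and without (open) such a UMI, with exact 95% Poisson intervals. In CD8 cells the share, at the deposited depth, is 5.03% in Naïve and 76.8%, 58.8% and 60.6% after ConA, and filled points lie above open ones throughout.

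In the 3 ConA libraries most member UMIs of the myeloid gate came from deep cells with granulocyte progenitor markers (at least 2 UMIs of Mpo, Elane, Prtn3 and Ctsg). There were 4, 88, 41 and 52 such cells from Naïve through ConA+Veh and ConA+TCDD to ConA+FICZ, and they carried 48.2%, 80.1%, 90.8% and 76.4% of the member UMIs of the gate at 4204, 3311, 3788 and 3463 CPM. The share of these cells in the gate was 3.6%, 23.2%, 37.6% and 13.1%, the same order among the 3 ConA libraries as the summed CPM. Without them the gate held 1020, 964, 1046 and 634 CPM, and the log2 ratio of ConA+Veh against Naïve was -0.08 (-0.24 to 0.07) in place of 0.47. The ratio of ConA+TCDD against ConA+Veh was 0.12 (-0.06 to 0.29) in place of 0.45, and that of ConA+FICZ against ConA+Veh was -0.60 (-0.73 to -0.48) in place of -0.40. Other settings moved the ratio of ConA+Veh against Naïve the other way, to 2.54 without the 5% deepest cells of each library and to 1.19 with each cell given equal weight. The depth cut took unequal parts of the gate, leaving 87 of 111 cells in Naïve and 357 of 379 in ConA+Veh. Progenitor-marked cells had a median of 27128 UMIs in Naïve and 16459 in ConA+Veh. How many of them the cut took was not counted, and their part in the move to 2.54 was not tested. Neutrophil-marked cells made up 9.01%, 17.2%, 16.5% and 34.8% of the gate and held 107 to 501 member CPM. With these left out too, the rest of the gate had 1080, 1050, 1182 and 829 CPM. Gins2 had the lowest ratio of ConA+FICZ against ConA+Veh in the whole gate, with 42.9 and 19.2 CPM and -1.16 (-1.67 to -0.66), and Tk1 had -1.01 (-1.5 to -0.52). Ccne2 was the member past 2-fold for ConA+TCDD against ConA+Veh, with 3.32 and 10.5 CPM from 10 and 13 UMIs and 1.66 (0.35 to 3.01), and E2f1 was the lowest at -0.36 (-1.24 to 0.45).

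Other genes of the pathway followed the members with smaller ratios. Of 37 further replication genes, 28 of the 37 tested were at least 2-fold higher in ConA+Veh than in Naïve CD8 cells, against 14.9% of all genes. Their median log2 ratio was 1.61. None passed 2-fold for ConA+TCDD or ConA+FICZ against ConA+Veh, where 3.2% and 4.49% of all genes did. The 3 with most UMIs were Dctpp1, a nucleotide pyrophosphatase, with 54.5, 312, 373 and 321 CPM, Nasp, a histone chaperone, with 101, 237, 253 and 246 CPM, and Dnmt1, the maintenance DNA methyltransferase, with 42.4, 198, 176 and 176 CPM. The G1 cyclins, kinases and inhibitors were mixed, with 8 of 15 tested at least 2-fold higher and 1 lower. Of all genes, 14.9% were higher and 1058 of 8946 lower. Cdk4 had 93.9, 289, 278 and 344 CPM, Ccnd2 259, 213, 237 and 327 CPM, and Ccnd3 153, 248, 202 and 241 CPM. Ccnd2 was thus no higher in ConA+Veh than in Naïve. Of the 9 other E2F and DP genes, 4 were at least 2-fold higher, against the same 14.9% of all genes. E2f4 had 75.7, 104, 105 and 127 CPM, Tfdp1 30.3, 93.2, 98.8 and 119 CPM, and E2f2 6.06, 32.0, 23.9 and 25.5 CPM.

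The mitotic genes had a larger median ratio of ConA+Veh against Naïve than the members, and lower sums in ConA+TCDD and ConA+FICZ than in ConA+Veh. All 10 were at least 2-fold higher in ConA+Veh than in Naïve CD8 cells, against 14.9% of all genes, with a median log2 ratio of 3.71. Their sum was 126 CPM in Naïve, 1659 in ConA+Veh, 1401 in ConA+TCDD and 1179 in ConA+FICZ. The log2 ratio was -0.24 (-0.30 to -0.19) for ConA+TCDD and -0.49 (-0.55 to -0.44) for ConA+FICZ against ConA+Veh, where the 38 members had -0.04 and -0.02. With each cell given equal weight the members had -0.25 and -0.14, and without the 5% deepest cells of each library -0.22 and -0.19. Top2a had 39.4, 486, 423 and 328 CPM, Mki67 33.3, 373, 284 and 173 CPM, and Birc5, a mitotic survivin, 21.2, 296, 282 and 248 CPM. In CD4 cells the mitotic sum had -0.47 (-0.57 to -0.36) for ConA+TCDD against ConA+Veh while the members had 0.15, and in NK cells it had 0.40 (0.19 to 0.60) while the members had -0.13. With gates set on thinned cells these member ratios turned to -1.11 in CD4 and 0.24 in NK. The mitotic sums were not taken under these other settings, so whether the contrast holds there was not tested.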

How the data were processed

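Single-cell libraries were made with the 10x Genomics 5' kit. Per the study's methods, the authors used Cell Ranger 3.0.2 to align reads to mm10 and count them per gene and cell. The deposited matrices hold whole-number counts, read here as UMI counts, for 1880 to 2779 cell barcodes a library. The gene annotation is not given in the sources used here. Groups were taken from the sample labels. The members and gene lists were chosen with earlier results of these data known.

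Gates used the deposited counts. T, B and myeloid cells needed at least 2 UMIs of Cd3e, Cd3d and Cd3g, of B cell genes (among them Cd79a, Cd79b and Ms4a1; the full list is not reported here), or of 8 myeloid genes (Lyz2, Csf1r, C1qa, C1qb, C1qc, Cd68, Ms4a6c and Fcgr1), and just 1 of these 3 gates. CD8 cells were T cells with Cd8a or Cd8b1 and without Cd4, and CD4 cells the reverse. NK cells had at least 2 UMIs of Ncr1, Klre1, Klrb1c, Klra4 and Klra8 and no Cd3 UMI. Neutrophil-marked cells had at least 10 UMIs of S100a8, S100a9, Retnlg, Cxcr2 and Csf3r, no UMI of a granulocyte progenitor marker and neither the T nor the B gate. No doublet caller was run, and the deepest cells were left out as an alternative. No filter on cells was used.

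UMIs were summed over a gate and divided by its total (CPM). Intervals are exact Poisson for CPM, exact binomial (Clopper-Pearson) for shares, and, for log2 ratios, exact binomial on the split of the UMIs between the 2 libraries. Members named are the 2 with most UMIs per role in CD8 and CD4 cells, the 3 with the largest ratios in each direction in CD8 and the outermost in each other gate, and for other lists the 3 with most UMIs in CD8. Members named beyond this rule were chosen after their values were seen. Fold calls and intervals were run on simulated Poisson counts with 4-fold changes planted in 200 genes. These counts had no spread between cells, mice or libraries, so they cannot show how far the intervals hold for the real cells. Python 3.11.15, numpy 2.4.6, scipy 1.17.1 and pandas 2.3.3 were used. Alternatives changed the gate minimum, depth, cell weights, cell filter, total, thinning, count minimum and fold.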

Additional observations from a re-analysis of the deposited data

Results flagged for a closer look

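The ratio of summed member CPM of ConA+TCDD against ConA+Veh lay on opposite sides of 0 in different gates, each with a counting interval clear of 0. It was 0.15 in CD4 and 0.45 in myeloid cells, and -0.044 in CD8 and -0.13 in NK cells, on the log2 scale. The difference between gates was not tested, since each group is 1 library. The CD4 and NK values turned in sign when gates were set on thinned cells, to -1.11 and 0.24. The CD8 value turned to 0.0062 with a gate minimum of 4 UMIs. The myeloid value was 0.12, with an interval across 0, without the granulocyte progenitor-marked cells.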

How the results depend on the processing

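With 1 library per group no alternative has a test, and each value was set against the counting interval of the reported one. No paired analysis was possible because each group is 1 library. The 2 kinds of main result were the log2 ratios of summed CPM and the counts of members past 2-fold. Of their values under an alternative, 96 stayed inside the reported interval or within 1.5 times the count. Another 69 moved past it, and 6 turned in sign from a reported interval clear of 0. Sign changes of ratios whose reported interval spanned 0 are not among the 6. In B cells the reported ratio of ConA+TCDD against ConA+Veh, -0.02, changed sign in this way to 0.078 and 0.069. That of ConA+FICZ against ConA+Veh, 0.03, changed to -0.13 and -0.26. With gates set on cells thinned to 1000 UMIs, where 9 to 22 cells a library remained in the CD4 gate, the log2 ratio of the summed CPM was 2.05 in CD8, 2.84 in CD4 and 0.85 in myeloid cells for ConA+Veh against Naïve, -0.15 in CD8, -1.11 in CD4, 0.24 in NK, 0.078 in B and 0.36 in myeloid cells for ConA+TCDD against ConA+Veh, -1.40 in CD4, -0.031 in NK, -0.13 in B and 0.071 in myeloid cells for ConA+FICZ against ConA+Veh and 0.21 in B for ConA+TCDD against ConA+FICZ. With a gate minimum of 1 UMI, the log2 ratio of the summed CPM was 2.34 in CD8, 1.32 in CD4, 1.19 in B and 0.66 in myeloid cells for ConA+Veh against Naïve, -0.16 in CD8 and 0.37 in myeloid cells for ConA+TCDD against ConA+Veh and -0.11 in CD8 and -0.56 in CD4 for ConA+FICZ against ConA+Veh. With a gate minimum of 4 UMIs, the log2 ratio of the summed CPM was 1.36 in B for ConA+Veh against Naïve, 0.0062 in CD8 and 0.069 in B for ConA+TCDD against ConA+Veh, -0.25 in myeloid cells for ConA+FICZ against ConA+Veh and 0.066 in B for ConA+TCDD against ConA+FICZ. With each cell given equal weight, the log2 ratio of the summed CPM was 2.48 in CD8, 2.08 in CD4, 0.78 in NK, 1.05 in B and 1.19 in myeloid cells for ConA+Veh against Naïve, -0.25 in CD8, 0.31 in CD4 and 0.34 in myeloid cells for ConA+TCDD against ConA+Veh, -0.14 in CD8, -0.37 in CD4, -0.46 in NK, -0.26 in B and -0.86 in myeloid cells for ConA+FICZ against ConA+Veh and 0.25 in B for ConA+TCDD against ConA+FICZ. With ribosomal protein and mitochondrial genes left out of the total, the log2 ratio of the summed CPM was 2.09 in CD8 and 1.39 in B for ConA+Veh against Naïve, 0.52 in myeloid cells for ConA+TCDD against ConA+Veh and -0.47 in myeloid cells for ConA+FICZ against ConA+Veh. Without the 5% deepest cells of each library, the log2 ratio of the summed CPM was 2.82 in CD8, 3.06 in CD4, 1.56 in B and 2.54 in myeloid cells for ConA+Veh against Naïve, -0.22 in CD8, 0.27 in CD4, 0.021 in NK and 0.00022 in myeloid cells for ConA+TCDD against ConA+Veh and -0.19 in CD8, -0.16 in NK and -0.92 in myeloid cells for ConA+FICZ against ConA+Veh. Without Dut, Pclaf and Mcm6, the 3 members with most UMIs, the log2 ratio of the summed CPM was 2.09 in CD8, 1.13 in B and 0.35 in myeloid cells for ConA+Veh against Naïve and -0.32 in myeloid cells for ConA+FICZ against ConA+Veh. Without granulocyte progenitor-marked cells, the log2 ratio of the summed CPM was -0.082 in myeloid cells for ConA+Veh against Naïve, 0.12 in myeloid cells for ConA+TCDD against ConA+Veh and -0.60 in myeloid cells for ConA+FICZ against ConA+Veh. With a minimum of 50 UMIs per gene, 6 of 11 members tested passed the fold in NK for ConA+Veh against Naïve (8.99% of all genes tested). For ConA+TCDD against ConA+Veh, 0 of 37 did in CD4 (1.49%), 0 of 19 in NK (1.58%) and 0 of 37 in myeloid cells (5.15%). For ConA+FICZ against ConA+Veh, 0 of 19 did in NK (2.39%). At 1.5-fold, 34 of 37 members tested passed in CD4 (23.5% of all genes) and 19 of 37 in myeloid cells (16%) for ConA+Veh against Naïve. For ConA+TCDD against ConA+Veh, 5 of 38 did in CD4 (16.6%) and 8 of 32 in NK (19.9%). The same comparison had 2 of 37 in B (16.1%) and 10 of 38 in myeloid cells (24.4%). For ConA+FICZ against ConA+Veh, 2 of 38 did in CD8 (16.1%), 14 of 37 in CD4 (23.4%) and 11 of 32 in NK (23.2%). That comparison had 1 of 38 in B (14.2%) and 10 of 37 in myeloid cells (22.5%). For the B cells with a UMI of Mki67 or Top2a, the reported ratio was -0.17 for ConA+Veh against Naïve and 0.09 for ConA+TCDD against ConA+Veh. Set on thinned cells, these turned to 0.048 and -0.14. For the cells without one, the reported ratio of ConA+FICZ against ConA+Veh was 0.15 in CD8 and 0.46 in CD4. Set on thinned cells, these turned to -0.044 and -0.49. With any of 10 mitotic genes in place of Mki67 and Top2a, the CD8 ratio turned to -0.0073. For B cells without one, that of ConA+TCDD against ConA+Veh, reported at 0.20, then turned to -0.086. The Hells ratio of ConA+FICZ against ConA+Veh in CD8 turned to 0.028 with gates set on thinned cells. The cause of these shifts was not tested. Leaving out neutrophil-marked cells from the NK gate was chosen after seeing the data. Depth limits single genes, since the Naïve NK gate held 220 UMIs over the 38 members together.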

Other observations

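T cells with UMIs of neither or of both the CD8 and CD4 markers were in no comparison. They numbered 247, 278, 287 and 216 from Naïve through ConA+Veh and ConA+TCDD to ConA+FICZ and held 1794, 4012, 2995 and 3461 member CPM. Their level in ConA+TCDD was the lowest of the 3 ConA libraries. Cells that passed more than 1 of the T, B and myeloid gates numbered 24, 96, 34 and 72, with a median of 4893, 13804, 12140 and 12566 UMIs, and held 2356, 4583, 4984 and 4083 member CPM. Cells that passed no gate numbered 264, 527, 560 and 617 and held 528, 1491, 1557 and 1037 member CPM, and haemoglobin genes reached 62777, 31054, 41076 and 2149 CPM in them. The part of these cells in the levels over all cells, 1206, 3467, 3500 and 3043 member CPM, was not tested.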
